A study of Homo sapiens with 18 samples.

Results

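The comparison set LIN28B-overexpressing cells treated with alpelisib against empty-vector (EV) cells, both under the LoVo label. LoVo and DLD-1 are established human colorectal adenocarcinoma lines. The EV group carried an empty vector and is labelled as having had no treatment. The other group overexpressed LIN28B and received 5 µM alpelisib, a drug that blocks the alpha catalytic subunit of the lipid kinase PI3K. Each group held 3 libraries, 6 of the 18 in the series; the other 12 were LoVo-labelled LIN28B cells without alpelisib and the same 3 groups of DLD-1. All cells grew in DMEM with serum, and all libraries were made from poly(A)-selected RNA. The length of treatment, the vehicle, the promoter driving LIN28B and whether a line was 1 clone are not stated in the labels. LIN28B and alpelisib differ together in this comparison, so their parts cannot be told apart from it alone, and the untreated LIN28B libraries are given beside the results for that reason. Treated and untreated LIN28B libraries are compared with the same EV libraries, so agreement between those comparisons is not independent. Genes entered where at least 3 of the 6 libraries reached 1 TPM (a share of the library corrected for gene length), which kept 16591 of 61806 genes. Nothing in the labels says that replicates were separate cultures, so p-values measure the spread between these libraries, which may be technical.

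LIN28B is an RNA-binding protein of embryonic and regenerating tissue. It binds the precursors of the let-7 microRNAs and blocks their maturation, so that mRNAs with let-7 sites in their 3′ untranslated region (UTR) escape repression. PI3K turns signals of receptors such as the ERBB family and the insulin receptor into a membrane lipid that recruits the kinase AKT. AKT holds FOXO transcription factors out of the nucleus and feeds mTOR, which drives lipid synthesis, glycolysis and ribosome production. In the colon, CDX2 and its partner factors maintain the absorptive and goblet cell programmes.

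The let-7 family is recognised by its seed, bases 2 to 8, and all 9 mature members matched in RefSeq (GRCh38.p14) carried the same one. The members below are shown because LIN28B acts on this family and because HMGA2, a chromatin protein, is its best known target. They are written 5′ to 3′ with the seed in capitals.
hsa-let-7a-5p: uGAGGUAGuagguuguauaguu
hsa-let-7d-5p: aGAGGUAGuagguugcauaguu
hsa-let-7g-5p: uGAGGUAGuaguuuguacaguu
hsa-miR-98-5p: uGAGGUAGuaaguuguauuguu

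The 3′ UTR of HMGA2 (GRCh38, chr12:65824131-65966295, plus strand) held 4 matches to this seed, read from its principal transcript. Each is shown on the plus strand of chromosome 12 over 22 bases, with the letters that pair with the seed in capitals. The first also has the A that follows the seed match in a full 8-base site.
HMGA2 site 1, chr12:65963299-65963320: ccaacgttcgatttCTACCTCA
HMGA2 site 2, chr12:65964534-65964555: cccactactcaataCTACCTCt
HMGA2 site 3, chr12:65964946-65964967: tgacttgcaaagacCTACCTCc
HMGA2 site 4, chr12:65965799-65965820: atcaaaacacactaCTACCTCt

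LIN28B (ENSG00000187772, GRCh38 chr6:104936616-105083332, plus strand) was read first, since it checks the labels. It measured 4.91, 3.66 and 3.87 TPM in the EV libraries and 146, 160 and 155 TPM in the libraries labelled LoVo LIN28B with alpelisib. All treated libraries lay far above all EV libraries. The change was 4.92 on the log2(TPM + 1) scale, which understates the change of low genes (SE 0.15, limma, adjusted p = 2.43e-13). LoVo-labelled LIN28B cells without alpelisib had 687 ± 16.6 TPM (SD, n = 3), so the treated libraries stood between the other LoVo-labelled groups. Against untreated LIN28B, the treated libraries had fallen by 2.15 log2 (limma, adjusted p = 4.68e-08). LIN28A, the paralog of LIN28B, did not reach the level needed for a test.

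The line behind the treated libraries could not be settled from the values. Over genes, which do not replicate one another, Pearson's r was 0.9560 to 0.9625 between LoVo EV and treated LoVo-labelled libraries. It was 0.9782 to 0.9822 between the treated libraries of both labels, 0.9828 to 0.9873 between replicates of LoVo EV and 0.9867 to 0.9885 between replicates of the treated LoVo-labelled group. Between treated LoVo-labelled libraries and DLD-1 EV it was 0.9683 to 0.9774. Untreated LoVo-labelled LIN28B libraries had 0.9812 to 0.9834 with DLD-1 EV and 0.9522 to 0.9636 with LoVo EV. KRT20, a keratin of mature colonocytes, set the treated libraries apart from LoVo EV and from treated DLD-1: 7.48 ± 0.956 TPM against 0.685 ± 0.36 in LoVo EV and 145 ± 11 in treated DLD-1 (SD, n = 3). Not all named genes did so, as FOXA1, KIT, LGR5, TFF3 and CD74 were not called between the treated groups. The EV groups of both labels differed in 10106 of 16591 genes by limma (60.9%), and the treated groups of both labels in 3582 (21.6%). Hence every direction below rests on libraries labelled LoVo whose line was not checked, and a difference between lines cannot be told apart from one due to LIN28B and alpelisib.

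The cells of both groups expressed markers of colonic epithelium. All 12 epithelial markers were measured, and their summed level was 7880 to 8914 TPM in EV and 16498 to 19293 TPM in the treated libraries. Of 14 leukocyte markers 3 could be tested, and 9 lay under 1 TPM in all 6 libraries, 2 of them listed at 0. The leukocyte sums were 20.6 to 37.9 TPM in EV and 32.4 to 38 TPM in the treated libraries. Fibroblast markers summed to 24.3 to 30.1 and 17.1 to 20.0 TPM, and endothelial markers to 3.48 to 6.04 and 6.01 to 7.70 TPM, with 3 testable in each list. In bulk samples fewer cells of a type and less RNA per cell cannot be told apart. Mitochondrially encoded RNA made up 24.02, 23.06 and 14.52% of TPM in EV replicates 1, 2 and 3, against 8.221 to 12.2% in the treated libraries. TPM sums to a fixed total, so a larger mitochondrial share leaves less for all other genes. With mitochondrial transcripts left out and the rest rescaled, 4395 genes were called higher and 3729 lower. The median change of all genes was 0.19 log2 as deposited and -0.02 after median-of-ratios scaling, a shift of 0.215, and counts under that scaling are given beside each gene group.

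By limma, 5851 genes (35.3%) were called higher and 2705 (16.3%) lower at an adjusted p under 0.05, together 51.6% of those tested. The libraries of both groups did not overlap in 51.8% of genes. Changes of 1 log2 or more were called in 1682 genes upward (10.1%) and 1118 downward (6.74%). After median-of-ratios scaling the split was 3995 higher (24.1%) and 4279 lower (25.8%), so the excess of rises was not seen under that scaling. Without EV replicates 1 and 2, which had the high mitochondrial shares, 3742 were called higher and 2570 lower. The counts of a gene group below are to be read against these shares and against the median change of all genes.

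**Figure D1:**
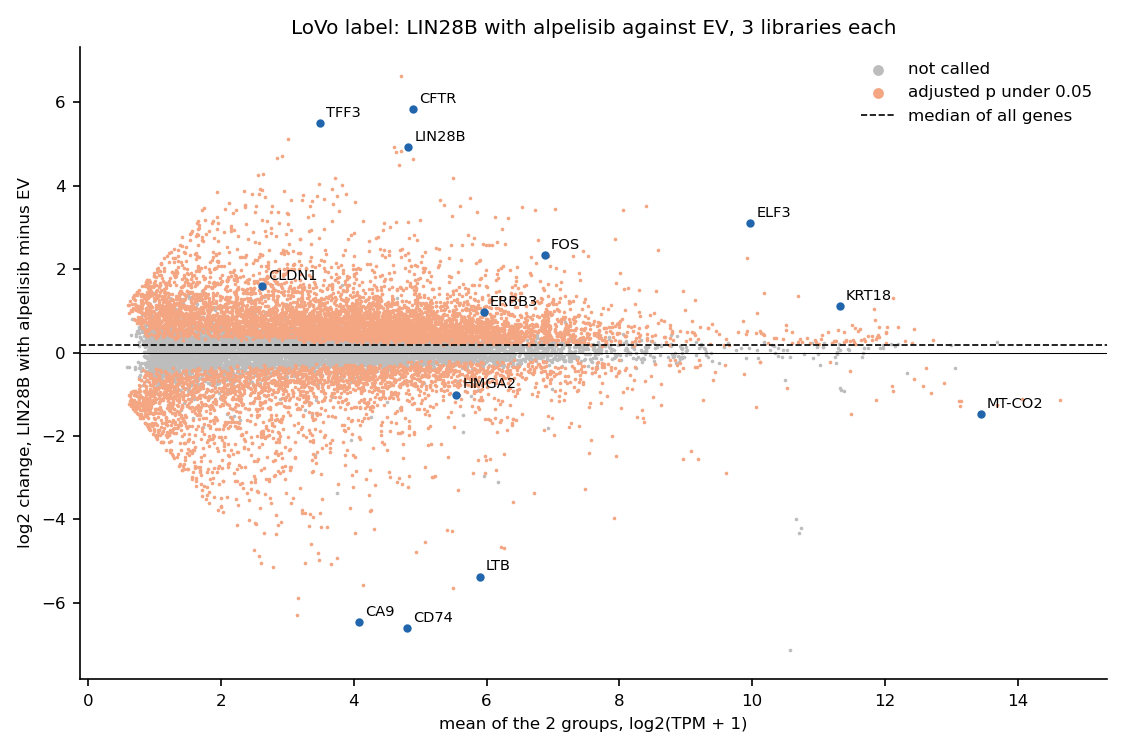
Change of each of 16591 genes (vertical axis, log2, LIN28B with alpelisib minus EV under the LoVo label) against its mean level in the 6 libraries (horizontal axis, log2(TPM + 1)). Orange points were called at an adjusted p under 0.05, blue points are named genes, and the dashed line is the median of all genes, 0.19 log2, which scaling moves to -0.02.

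Genes of the gut epithelium were among those that rose most. REG4, a secreted lectin of goblet and enteroendocrine cells, had 3.86, 4.18 and 3.07 TPM in EV and 117, 136 and 142 TPM in the treated libraries. REG4 was higher in every treated library than in any EV library (log2 change 4.82, limma, adjusted p = 9.21e-13).

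CFTR (GRCh38 chr7:117465784-117715971, plus strand), the chloride channel of crypt cells, went from 4.31, 2.41 and 2.25 TPM to 226, 212 and 227 TPM. The groups did not overlap, and the log2 change was 5.84 (SE 0.15, limma, adjusted p = 6.43e-14). TFF3, a peptide that goblet cells secrete with mucus, had 1.36, 0 and 0.746 TPM in EV and 60.5, 89.3 and 67.9 TPM in the treated libraries (log2 change 5.5, limma, adjusted p = 3.23e-12). DLD-1 EV already held 65.7 ± 5.97 TPM of TFF3 (SD, n = 3), beside 72.6 ± 15 TPM in the treated LoVo-labelled libraries. PHGR1, a small protein of the gut lining, rose from 3.47 ± 1.14 to 132 ± 20.6 TPM, the zinc transporter SLC39A2 from 0.369 ± 0.287 to 46.0 ± 1.68 TPM and FAM3D, a secreted gut protein, from 0.429 ± 0.435 to 26.1 ± 3.37 TPM (SD, n = 3). Others among the 12 largest rises were KIAA0319, a membrane protein of neurons, at 37.9 ± 6.22 TPM, and TRMT61A, a tRNA methyltransferase, at 145 ± 24.9 TPM, with the RNA transcribed away from its start, TRMT61A-DT, at 140 ± 21 TPM. NCAPD2P1 also met the rule, but it is a pseudogene that may share reads with its parent gene.

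The largest falls included CD74, LTB and CCL2, genes with roles in immunity, and the hypoxia gene CA9. The wider lists did not fall as a whole. Of 3 testable leukocyte markers 2 rose and 1 fell, and of 25 hypoxia genes 9 rose and 6 fell. CD74 (GRCh38 chr5:150401637-150412929, minus strand), the invariant chain of MHC class II, measured 258, 276 and 287 TPM in EV and 1.53, 1.63 and 2.32 TPM in the treated libraries. No treated library came near an EV library (EV 149.9 times higher by means, log2 change -6.61, SE 0.30, limma, adjusted p = 1.75e-11). CA9 (GRCh38 chr9:35673856-35681159, plus strand), a carbonic anhydrase induced by low oxygen, measured 159, 142 and 165 TPM in EV and 1.25, 0.97 and 0.238 TPM in the treated libraries (log2 change -6.47, limma, adjusted p = 9.65e-12). SUGCT, an enzyme that moves CoA onto glutarate in mitochondria, fell from 320 ± 21.5 to 5.39 ± 0.706 TPM, LTB, a lymphotoxin, from 381 ± 35.6 to 8.32 ± 1.59 TPM and CCL2, a monocyte chemokine, from 61.1 ± 6.79 to 0.983 ± 0.292 TPM (SD, n = 3). In untreated LIN28B libraries CD74, CA9, SUGCT, LTB and CCL2 were low as well, at 2.5, 3.19, 1.84, 9.84 and 0.477 TPM by group mean.

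TNFRSF6B, a decoy receptor for FAS ligand, had 74.5, 87.3 and 71.0 TPM in EV and was listed at 0 in all treated libraries. It overlaps the readthrough gene RTEL1-TNFRSF6B on the same strand, so its level depends on how shared reads were assigned. AKAP12, a kinase scaffold, fell from 122 ± 32.8 to 1.54 ± 0.295 TPM, GTSF1, a germline factor, from 67.5 ± 5.86 to 0.167 ± 0.165 TPM and NOTUM, a secreted Wnt inhibitor, from 73.1 ± 8.11 to 1.44 ± 0.222 TPM (SD, n = 3). SAA2, an acute phase protein whose reads may be split with its close copy SAA1, went from 69.3 ± 6.63 to 1.27 ± 0.937 TPM.

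MIR100HG (GRCh38 chr11:122028327-122556721, minus strand) was also among the falls. It is the host transcript of the let-7a-2 hairpin, whose mature product is the let-7a sequence shown above, and of miR-100 and miR-125b-1. It measured 32.9, 36.9 and 31.9 TPM in EV and 0.0355, 0.15 and 0 TPM in the treated libraries, a fall by 5.04 log2 (limma, adjusted p = 9.09e-13). Untreated LIN28B had 0.241 ± 0.206 TPM and DLD-1 EV 0.487 ± 0.377 TPM (SD, n = 3), so LoVo EV was the group that stood apart. Mature microRNAs were not measured in these poly(A) libraries.

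HMGA2, with its let-7 sites shown above, measured 56.8, 63.7 and 74.7 TPM in EV and 34.4, 32.7 and 28.1 TPM in the treated libraries. It was lower in every treated library, by 1.01 log2 (SE 0.11, limma, adjusted p = 1.25e-06). Untreated LIN28B had 25.3 ± 2.41 TPM (SD, n = 3). In DLD-1 the same comparison went upward, from 18.4 ± 0.977 to 36.4 ± 1.91 TPM (log2 change 0.95, limma, adjusted p = 2.05e-05), and the treated groups of both labels were within 0.19 log2 of each other (limma, adjusted p = 0.241). ERBB3 (GRCh38 chr12:56076799-56103505, plus strand), a receptor that couples directly to PI3K, had 42.7, 43.6 and 43.9 TPM in EV and 80.6, 92.2 and 84.5 TPM in the treated libraries. The ERBB3 groups did not overlap (log2 change 0.96, SE 0.09, limma, adjusted p = 1.59e-07), and untreated LIN28B lay between them at 59.6 ± 5.65 TPM (SD, n = 3). CLDN1 (GRCh38 chr3:190305701-190322475, minus strand), a tight junction claudin, had 1.51, 1.93 and 4.49 TPM in EV and 9.59, 8.39 and 10.0 TPM in the treated libraries. EV replicate 3 was the highest EV library for CLDN1 but still below each treated library (log2 change 1.59, limma, adjusted p = 1.11e-05), and untreated LIN28B stood at 9.58 ± 0.794 TPM.

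**Figure D2:**
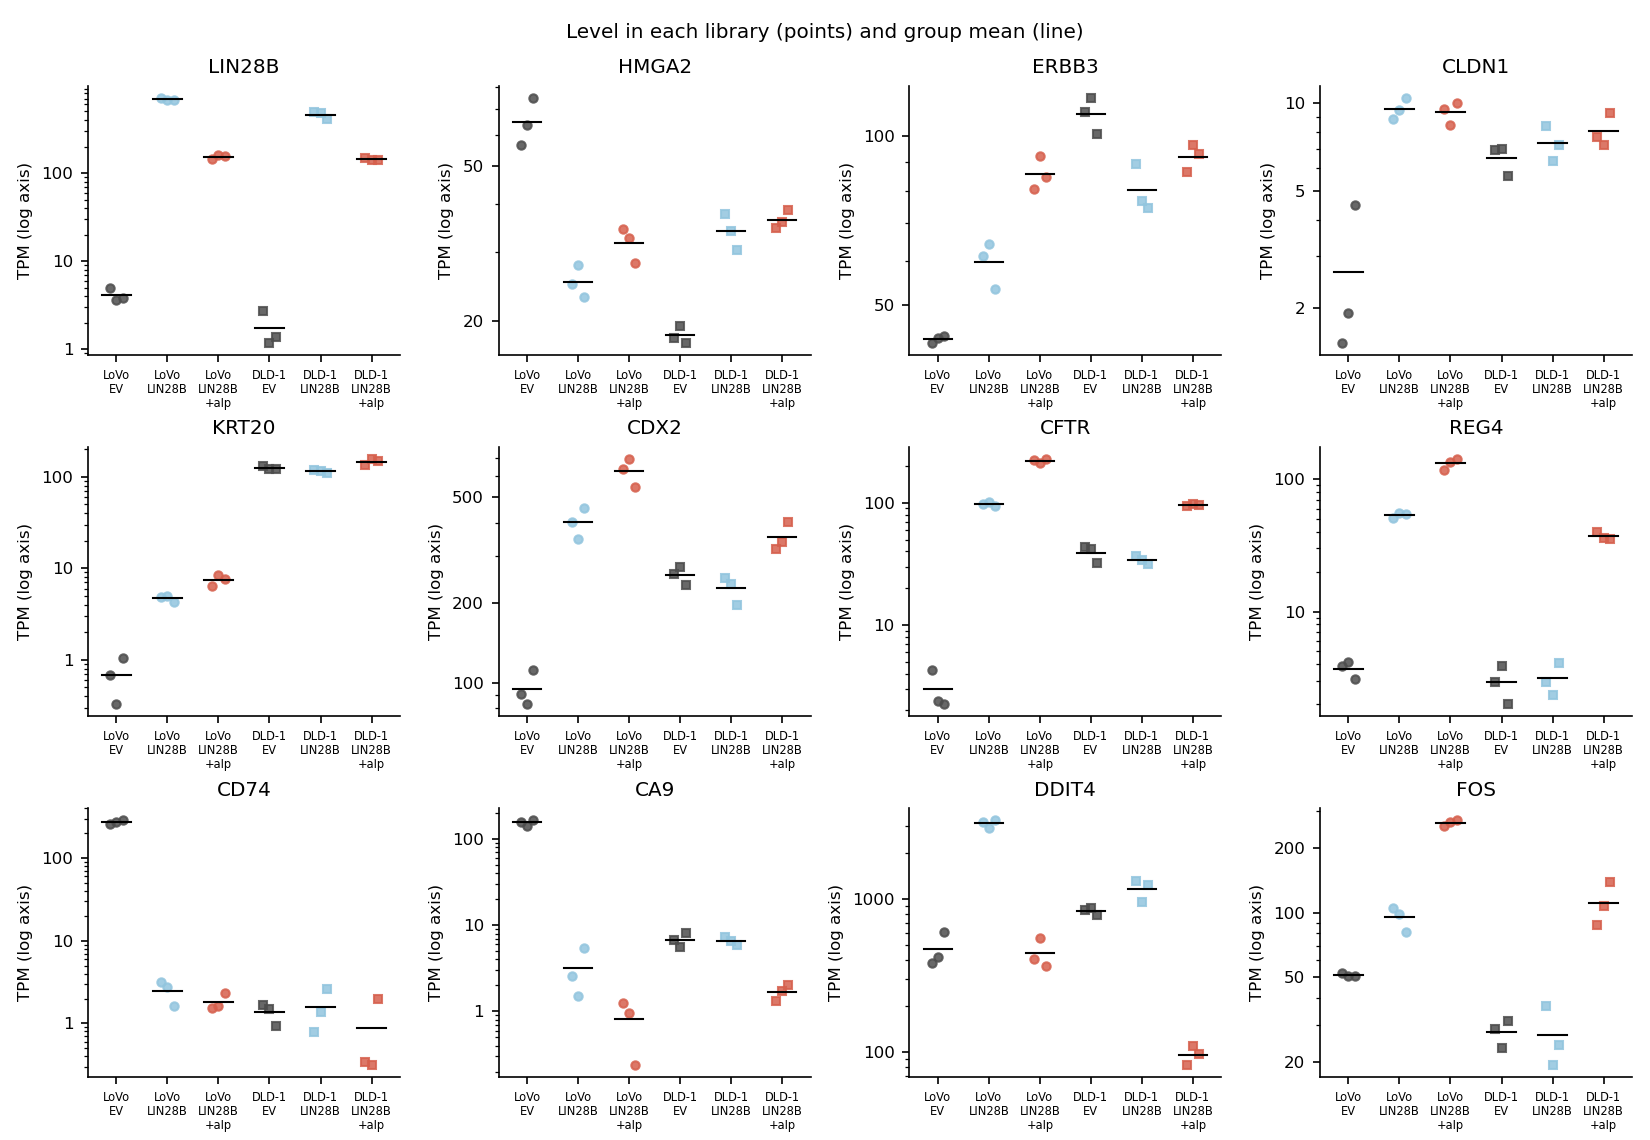
Level of 12 genes (vertical axes, TPM on a log scale) in each of the 18 libraries, grouped by labelled line and treatment on the horizontal axes, with points for libraries and lines for group means. HMGA2 was higher in LoVo EV (56.8 to 74.7 TPM) than in the treated libraries (28.1 to 34.4 TPM), REG4 reached 117 to 142 TPM in the treated LoVo-labelled libraries, and DDIT4 in treated LoVo-labelled cells (441 ± 98.5 TPM) lay near LoVo EV (468 ± 119 TPM).

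Genes of let-7 maturation were called no more often than all genes. Of 18 tested members, which include LIN28B itself, 6 rose and 1 fell (4 and 3 after scaling), beside 35.3% higher and 16.3% lower over all genes, with a median log2 change of 0.16 that scaling turned to -0.08. DICER1, which cuts the hairpin, rose from 7.18 ± 0.577 to 19.9 ± 5.33 TPM, its cofactor TARBP2 from 24.8 ± 2.2 to 46.9 ± 1.93 TPM and KHSRP, which aids let-7 processing, from 141 ± 4.47 to 212 ± 33.2 TPM (SD, n = 3). XPO5, the exporter of precursors, fell from 19.9 ± 1.27 to 15.6 ± 1.2 TPM (limma, adjusted p = 0.0262).

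Known let-7 target mRNAs went both ways. Of 34 tested, 19 rose and 7 fell (15 and 11 after scaling, 12 and 9 without EV replicates 1 and 2), with a median log2 change of 0.43. Over all genes 35.3% rose and 16.3% fell (24.1% and 25.8% after scaling), with a median of 0.19. THBS1, a matrix glycoprotein, rose from 1.46 ± 0.327 to 17.3 ± 5.35 TPM, the zinc finger factor PLAGL2 from 4.25 ± 0.792 to 18.2 ± 3.23 TPM and ARID3A, a DNA-binding protein, from 26.9 ± 4.16 to 81.3 ± 9.09 TPM (SD, n = 3). PEG10, an imprinted gene of retroviral origin, fell from 17.5 ± 1.55 to 1.34 ± 0.827 TPM, cyclin CCND2 from 10.7 ± 0.395 to 2.90 ± 0.555 TPM and the mRNA-binding protein IGF2BP3 from 32.7 ± 9.8 to 13.4 ± 5.85 TPM. Its relative IGF2BP2 had a log2 change of 0.21 (limma, adjusted p = 0.0258), which scaling turned to -0.04 (adjusted p = 0.707), and IGF2BP1 was too low to test. MYCN, a further target, rose from 0.192 ± 0.0517 to 2.99 ± 0.745 TPM, while MYC measured 71.9 ± 20 and 58.2 ± 13.2 TPM (limma, adjusted p = 0.191; after scaling it was called lower, by 0.54 log2, adjusted p = 0.00786).

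The seed match itself was searched as CTACCTC in the 3′ UTR of the principal transcript of 12753 tested genes. Of these, 1237 held at least 1 match, and 41% of them were called higher and 15.1% lower, beside 38.6% and 17.2% of all genes with a UTR sequence. Their median log2 change was 0.26 against 0.21. A full 8-base match, CTACCTCA, was found in 476 genes, 42.9% called higher and 13.2% lower. Genes with at least 2 matches did not follow the same order: of 133 with 2 or more 7-base matches 33.1% were called higher and 13.5% lower, and of 16 with 2 or more 8-base matches 12.5% and 6.25%. Of the 34 listed targets 11 held no 7-base match in the UTR searched, THBS1, PEG10, CCND2, MYCN and MYC among them. UTR length differed as well, with medians of 2696 and 1036 bases for genes with a match and for all, so the shares are a description of overlapping gene sets.

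Receptors that feed PI3K went both ways. Of 30 receptor tyrosine kinases and adaptors, 13 rose and 8 fell (12 and 9 after scaling), beside 35.3% and 16.3% of all genes, with a median log2 change of 0.31. KIT, the stem cell factor receptor, had 0.683, 0.33 and 0.608 TPM in EV and 24.6, 19.0 and 23.5 TPM in the treated libraries. KIT was under every treated library in each EV library (log2 change 3.92, limma, adjusted p = 1.17e-13). FGFR3, a fibroblast growth factor receptor, rose from 17.8 ± 0.584 to 79.5 ± 2.39 TPM, ERBB2, the partner of ERBB3, from 57.2 ± 12.4 to 139 ± 24.8 TPM and the docking protein GAB1 from 2.60 ± 0.968 to 12.8 ± 3.38 TPM (SD, n = 3). Receptors that fell included FGFR4, from 13.2 ± 1.39 to 4.53 ± 0.625 TPM, FGFR1, from 24.5 ± 1.86 to 10.2 ± 0.515 TPM, and the ephrin receptors EPHA2, from 87.0 ± 6.51 to 39.0 ± 2.6 TPM, and EPHA1, from 48.1 ± 4.41 to 21.9 ± 1.07 TPM. EGFR measured 19.4 ± 5.12 and 14.4 ± 2.05 TPM, a fall that just passed the threshold (limma, adjusted p = 0.0462). The insulin receptor INSR (7.37 ± 0.928 and 7.72 ± 0.81 TPM) and IGF1R (10.5 ± 1.71 and 11 ± 0.889 TPM) were not called (limma, adjusted p = 0.809 and 0.767). Of their adaptors, IRS2 rose from 2.88 ± 0.278 to 5.46 ± 0.894 TPM (limma, adjusted p = 0.000448), and IRS1 measured 16.6 ± 3.74 and 19.0 ± 4.4 TPM (limma, adjusted p = 0.399).

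Components of PI3K, AKT and mTOR went both ways as well. Of 37 tested, 14 rose and 5 fell, a share of rises near the 35.3% of all genes. After scaling 7 rose and 8 fell, and without EV replicates 1 and 2 the counts were 8 and 3. PIK3CA, the catalytic subunit that alpelisib inhibits, had 5.43, 5.77 and 8.71 TPM in EV and 13.8, 11.5 and 11.2 TPM in the treated libraries. Every treated library was above every EV library for PIK3CA (log2 change 0.80, limma, adjusted p = 0.000245), and untreated LIN28B stood at 15.0 ± 0.623 TPM (SD, n = 3). PIK3C2B, a class II kinase, rose from 5.41 ± 0.946 to 16.2 ± 3.16 TPM and PIK3C3, the kinase of autophagy, from 17.7 ± 3.51 to 31.4 ± 2.85 TPM. PIK3IP1, an inhibitor of the catalytic subunit, fell from 11 ± 1.69 to 2.38 ± 0.266 TPM, EIF4EBP1, a translation repressor, from 100 ± 10.9 to 46.4 ± 1.24 TPM, PIK3CD, the delta subunit, from 5.79 ± 1.36 to 2.98 ± 0.243 TPM and the regulatory subunit PIK3R3 from 3.53 ± 1.96 to 0.901 ± 0.0617 TPM. Not called were the kinase AKT1, at 78.3 ± 6.56 and 84.9 ± 7.06 TPM, the beta subunit PIK3CB, at 10.3 ± 0.698 and 10.6 ± 2.36 TPM, and the regulatory subunit PIK3R1, at 10.1 ± 2.54 and 12.2 ± 2.52 TPM (limma, adjusted p = 0.345, 0.929 and 0.187). AKT2 rose from 73.5 ± 6.23 to 95.0 ± 4.74 TPM (limma, adjusted p = 0.00135), a call that scaling ended (adjusted p = 0.269).

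FOXO targets, which AKT represses through FOXO, rose in 16 of 26 and fell in 4 (12 and 6 after scaling), with a median log2 change of 0.64. Over all genes 35.3% rose and 16.3% fell (24.1% and 25.8% after scaling), with a median of 0.19. CITED2, a transcriptional coregulator, rose from 25 ± 8.49 to 154 ± 47.8 TPM, SESN3, a sestrin that restrains mTOR, from 1.95 ± 0.38 to 11.4 ± 1.8 TPM, CAT, the catalase, from 31.5 ± 7.28 to 111 ± 11 TPM and the cell cycle inhibitor CDKN1B, at 56.7, 59.3 and 79.7 TPM in EV, to between 108 and 136 TPM (SD, n = 3). TRIB1, a pseudokinase, fell from 43.0 ± 10.7 to 5.10 ± 1.24 TPM, and GADD45A, a stress gene, from 102 ± 5.45 to 63.8 ± 5.81 TPM. CITED2, SESN3 and CAT were at 134 ± 12.2, 9.71 ± 0.502 and 112 ± 7.56 TPM in untreated LIN28B, close to the treated libraries. Set against the same EV libraries, untreated LIN28B had 16 of the 26 higher and 3 lower, beside 7258 and 3056 of all 16591 genes. Against untreated LIN28B 4 rose and 10 fell in the treated libraries (7 and 7 after scaling), beside 17.1% and 27.1% of all genes. In DLD-1, treated against EV, 3 rose and 11 fell (4 and 10 after scaling), beside 11% and 22.6% of all genes. Whether FOXO activity changed was not tested.

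The factors that maintain intestinal identity rose as a block. All 16 that could be tested, of 20 listed, were called higher (15 after scaling, 15 without EV replicates 1 and 2), against 35.3% of all genes, with a median log2 change of 1.96. Set against the same EV libraries, untreated LIN28B had all 16 higher as well (median 1.99 log2), where 7258 of 16591 genes were called higher. Against untreated LIN28B 7 of the 16 rose and 5 fell in the treated libraries (9 and 4 after scaling). The list median in DLD-1 EV was 4.56 to 4.84 log2(TPM + 1), beside 4.52 to 4.83 in the treated libraries and 2.92 to 3.29 in LoVo EV. The summed level of the listed factors was 588 to 637 TPM in EV and 3926 to 4666 TPM in the treated libraries. ELF3, an epithelial ETS factor, accounts for much of that sum, with 372, 331 and 314 TPM in EV and 2514, 3154 and 3176 TPM in the treated libraries. Each treated library had several times the ELF3 of any EV library (8.69-fold by means, log2 change 3.11, limma, adjusted p = 2.17e-13). CDX2, which specifies hindgut epithelium, measured 90.3, 83.0 and 111 TPM in EV and 641, 694 and 545 TPM in the treated libraries. CDX2 was thus higher throughout (log2 change 2.71, limma, adjusted p = 6.05e-11), and it was above untreated LIN28B, at 402 ± 53.8 TPM, as well. FOXA1, a pioneer factor, rose from 13.3 ± 1.79 to 137 ± 5.84 TPM and KLF5, a factor of crypt cells, from 72.3 ± 6.23 to 284 ± 13.4 TPM (SD, n = 3).

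The epithelial markers rose in 10 of 12 and fell in 1 (the same numbers after scaling). For this and the next marker lists, the shares over all genes were 35.3% higher and 16.3% lower (24.1% and 25.8% after scaling). KRT18, a simple epithelial keratin, rose from 1736 ± 32.2 to 3745 ± 270 TPM, the surface glycoprotein CEACAM5 from 2.63 ± 0.2 to 49.1 ± 11.1 TPM and E-cadherin CDH1 from 66.8 ± 11.6 to 216 ± 60.3 TPM (SD, n = 3), while CLDN3 fell from 85.7 ± 2.79 to 63.7 ± 7.74 TPM. Goblet and secretory markers rose in 9 of 14 and fell in 2 (8 and 2 after scaling). The trefoil peptide TFF1 rose from 3.08 ± 1.71 to 52.4 ± 7.76 TPM and the mucin MUC13 from 5.12 ± 0.975 to 15.1 ± 1.81 TPM, whereas MUC1 and MUC6 fell, to 12.2 ± 2.59 and 1.35 ± 0.205 TPM. Of 24 enterocyte markers only 8 reached a testable level, 7 of which rose (7 with 1 lower after scaling). FABP1, a fatty acid carrier, was listed at 0 in all EV libraries and had 10.6, 15.6 and 15.0 TPM in the treated ones, and CEACAM7 rose from 0.424 ± 0.177 to 13.4 ± 0.316 TPM. In untreated LIN28B, FABP1 had 15.8 ± 7.56 TPM and CEACAM7 5.90 ± 1.58 TPM. Only 2 of 14 enteroendocrine markers were testable: SCG5, a prohormone chaperone, rose from 26.6 ± 2.43 to 128 ± 16.4 TPM and SCG2, a granin, fell from 3.88 ± 0.802 to 0.284 ± 0.0746 TPM.

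**Figure D3:**
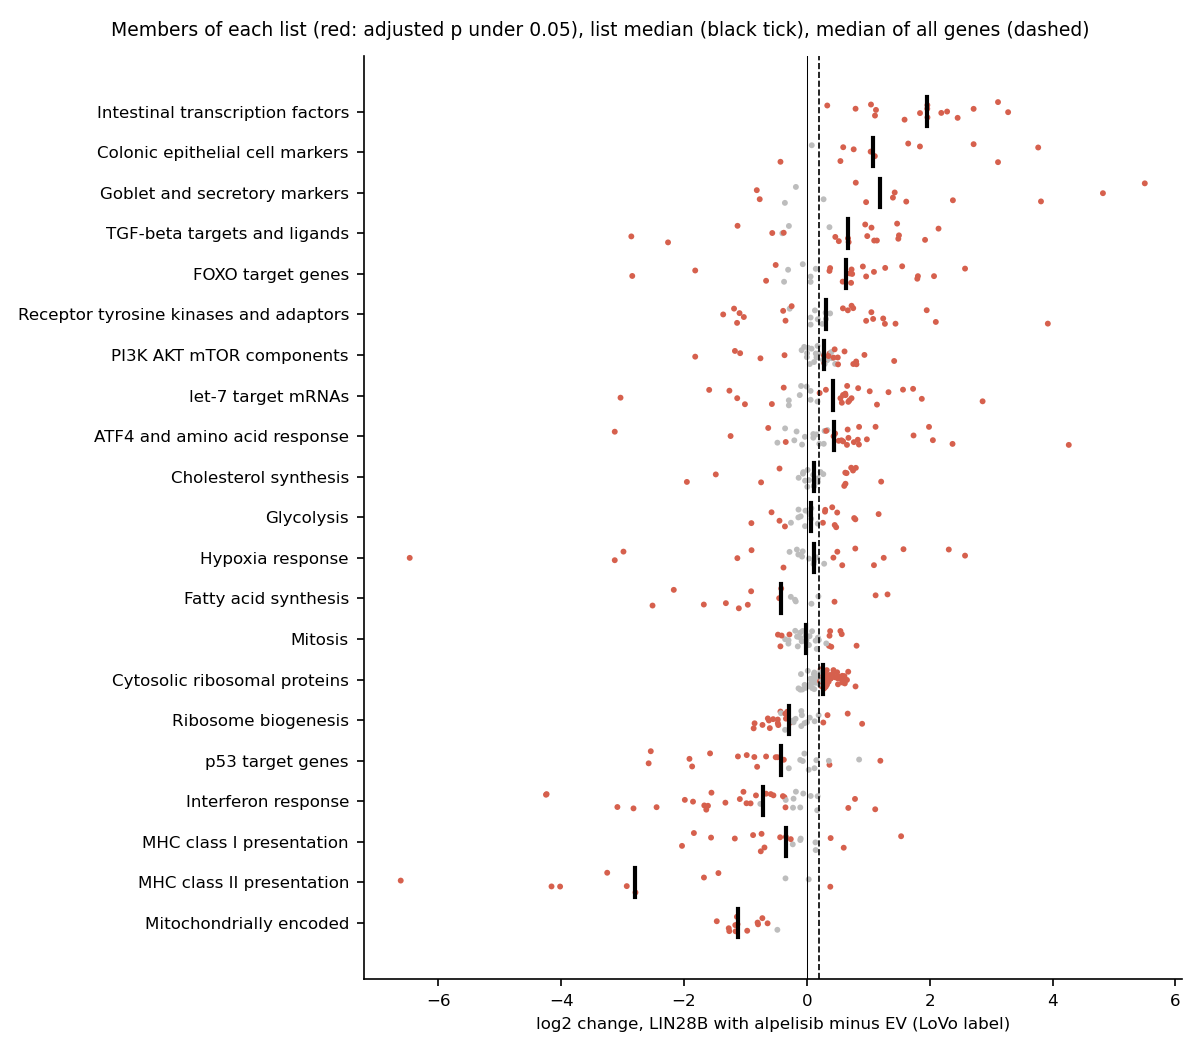
Log2 change (horizontal axis, LIN28B with alpelisib minus EV, LoVo label) of each tested member of 21 gene groups (vertical axis), red where limma called it and grey where not, with the group median as a black tick and the median of all genes as a dashed line. All 16 intestinal transcription factors were called higher (15 after scaling) and 12 of 13 mitochondrially encoded genes lower (13 after scaling), while group medians near 0, such as those of cholesterol synthesis, glycolysis and hypoxia response, turned negative after scaling.

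Wnt and stem cell genes split. Of 20 tested, 7 rose and 5 fell, beside 35.3% and 16.3% of all genes. After scaling 7 rose and 8 fell, beside 24.1% and 25.8% of all genes. LGR5, the receptor that marks crypt stem cells, had 0.425, 0.495 and 0.578 TPM in EV and 16.9, 17.1 and 15.4 TPM in the treated libraries. LGR5 was lower in each EV library than in any treated one (log2 change 3.54, limma, adjusted p = 3.48e-13), and treated DLD-1 had a like level of 18.3 ± 0.694 TPM (SD, n = 3). The Wnt target AXIN2 rose from 157 ± 13.8 to 454 ± 70 TPM and SOX9, a progenitor factor, from 35.5 ± 2.06 to 109 ± 1.23 TPM. APCDD1, a Wnt inhibitor, fell from 293 ± 75 to 23.2 ± 1.58 TPM, the RNA-binding protein MSI1 from 9.16 ± 1.07 to 0.836 ± 0.107 TPM and LEF1, a Wnt effector, from 79.9 ± 8.49 to 42.8 ± 7.18 TPM.

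Cell contact and signalling genes went both ways too. Over all genes 35.3% rose and 16.3% fell (24.1% and 25.8% after scaling). Of 18 claudin and tight junction genes, 8 rose and 4 fell (6 and 7 after scaling). CLDN4 rose from 314 ± 53.6 to 531 ± 72.3 TPM, and CLDN2 fell from 4.85 ± 1.39 to 2.60 ± 0.433 TPM (SD, n = 3). Of 24 Notch pathway genes 12 rose and 5 fell (11 and 6 after scaling, 7 and 4 without EV replicates 1 and 2): the target HES1 rose from 36.0 ± 5.44 to 154 ± 19.2 TPM and the ligand DLL4 from 0.661 ± 0.217 to 4.32 ± 0.186 TPM. The receptor NOTCH1 fell from 12.2 ± 1.15 to 1.88 ± 0.0576 TPM, and NOTCH3, at 13.0 ± 0.666 and 9.25 ± 1.77 TPM, passed narrowly (limma, adjusted p = 0.0492). TGF-beta targets and ligands rose in 14 of 22 and fell in 5 (14 and 6 after scaling), with CCN2, a matricellular protein, up from 1.67 ± 0.465 to 10.7 ± 0.781 TPM. Genes of epithelial and mesenchymal state had 6 higher and 6 lower of 17 (5 and 7 after scaling). The splicing factor ESRP2 rose from 37.5 ± 0.731 to 128 ± 20.8 TPM and OVOL2, an epithelial repressor, from 0.993 ± 0.108 to 10.2 ± 1.23 TPM, while fibronectin FN1 fell from 68.9 ± 5.5 to 4.09 ± 0.726 TPM and S100A4, a motility protein, from 1207 ± 173 to 203 ± 15.5 TPM.

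Immune response genes fell in number. MHC class II genes, normally a feature of antigen-presenting cells, fell in 8 of 11 and rose in 1 (8 and 0 after scaling), against 16.3% of all genes called lower, and their summed level went from 383 to 429 TPM in EV to 26.2 to 31.0 TPM. HLA-DRA, the class II alpha chain, had 41.1, 34.8 and 45.9 TPM in EV and 0.53, 2.23 and 1.51 TPM in the treated libraries, with no overlap (log2 change -4.16, limma, adjusted p = 2.42e-09). HLA-DPA1 and HLA-DQB1 fell from 20.4 ± 2.61 and 27.0 ± 0.667 TPM to 0.330 ± 0.221 and 1.95 ± 0.254 TPM (SD, n = 3), and HLA-DMA, a peptide editor, was the member that rose, from 12.8 ± 1.71 to 16.9 ± 1.11 TPM, until scaling (adjusted p = 0.388). CD74 and HLA-DRA were low in treated DLD-1 as well, at 0.877 ± 0.956 and 0.738 ± 0.463 TPM. Class I presentation genes fell in 11 of 19 and rose in 3 (14 and 1 after scaling). HLA-B, a class I heavy chain, fell from 217 ± 24 to 72.9 ± 8.29 TPM and the immunoproteasome subunit PSMB9 from 33.0 ± 2.91 to 7.42 ± 1.89 TPM, while the peptidase ERAP2 rose from 6.46 ± 0.89 to 20.8 ± 4.6 TPM. Set against the same EV libraries, untreated LIN28B had 0 class II genes higher and 10 lower, and 1 class I gene higher and 10 lower. Over all 16591 genes 7258 were higher and 3056 lower in that comparison. Against untreated LIN28B the treated libraries had 2 class II genes higher and 0 lower (3 and 0 after scaling). For class I genes these counts were 4 and 3 (6 and 1 after scaling). HLA genes share much sequence, and how the counting split their reads is not given in the sources used here.

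Interferon response genes fell in 23 of 36 and rose in 3 (28 and 3 after scaling, 23 and 4 without EV replicates 1 and 2), with a median log2 change of -0.71. Over all genes 16.3% fell and 35.3% rose (25.8% and 24.1% after scaling). BST2, which tethers virions, had 150, 176 and 230 TPM in EV and 9.76, 9.36 and 7.04 TPM in the treated libraries. The BST2 groups were far apart (log2 change -4.25, limma, adjusted p = 6.69e-11). ISG15, a ubiquitin-like protein, fell from 470 ± 44 to 118 ± 7.28 TPM, IFI6 from 186 ± 20.5 to 25.4 ± 3 TPM and XAF1 from 10.9 ± 1.91 to 0.411 ± 0.33 TPM (SD, n = 3), and OAS1, an RNA sensor, rose from 22.3 ± 1.64 to 36.1 ± 1.22 TPM. Set against the same EV libraries, untreated LIN28B had 22 of the 36 interferon genes lower and 4 higher, with a median of -0.67 log2. Over all 16591 genes 3056 were lower and 7258 higher in that comparison. Against untreated LIN28B 6 rose and 10 fell in the treated libraries (9 and 9 after scaling), with a median of 0.10 log2. Chemokines and cytokines split, with 10 of 20 higher and 6 lower (9 and 7 after scaling, 6 and 6 without EV replicates 1 and 2). CXCL5, a neutrophil chemokine, rose from 25.9 ± 6.62 to 158 ± 24.2 TPM, IL37, an anti-inflammatory interleukin, from 2.72 ± 0.241 to 43.2 ± 6.76 TPM and CCL28, a mucosal chemokine, from 3.63 ± 0.587 to 10.2 ± 0.82 TPM. IL32 fell from 334 ± 40.6 to 31.7 ± 5.54 TPM and LIF from 24.9 ± 0.736 to 4.54 ± 0.226 TPM. IL37 was at 7.39 ± 1.13 TPM in untreated LIN28B, from which the treated libraries differed by 2.40 log2 (limma, adjusted p = 3.34e-08).

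Metabolic groups stood nearer to EV than to untreated LIN28B by their median changes. The comparisons with EV and with untreated LIN28B share the treated libraries, so their counts are set side by side and not combined. Cholesterol synthesis genes rose in 8 of 27 and fell in 4 against EV, with a median of 0.12 (8 and 7 after scaling, median -0.12, and 5 and 4 without EV replicates 1 and 2). Against untreated LIN28B, where limma called 2831 of 16591 genes higher (17.1%) and 4501 lower (27.1%), 0 of the 27 rose and 23 fell, with a median of -1.13. After scaling 3712 of all genes were higher and 3605 lower against untreated LIN28B, while 1 of the 27 rose and 23 fell. INSIG1, which retains the sterol sensor in the endoplasmic reticulum, had 138, 132 and 190 TPM in EV and 51.4, 69.4 and 43.0 TPM in the treated libraries, below EV throughout (log2 change -1.48, limma, adjusted p = 2.91e-07), beside 328 ± 14.1 TPM in untreated LIN28B. SC5D and ACAT2, enzymes of sterol synthesis, rose from 41.8 ± 9.41 and 49.5 ± 8.67 TPM to 99.1 ± 26.7 and 82.1 ± 12.7 TPM (SD, n = 3). Fatty acid synthesis genes fell in 9 of 17 and rose in 3 against EV (12 and 2 both after scaling and without EV replicates 1 and 2), and 0 rose and 13 fell against untreated LIN28B. SCD, the stearoyl-CoA desaturase, had 233, 230 and 366 TPM in EV, 646 ± 39.2 TPM in untreated LIN28B and 85.2, 106 and 65.0 TPM in the treated libraries, the lowest of the 3 LoVo-labelled groups (log2 change from EV -1.68, limma, adjusted p = 2.9e-07). FASN, the fatty acid synthase, fell from 188 ± 16.9 to 99.8 ± 6.16 TPM, FADS1 from 24.8 ± 6.63 to 3.46 ± 0.733 TPM and ELOVL5 from 25.5 ± 4.65 to 4.84 ± 0.27 TPM, the last 2 a desaturase and an elongase of polyunsaturated fats.

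Glycolysis genes rose in 10 of 25 and fell in 4 against EV (5 and 9 after scaling, 2 and 8 without EV replicates 1 and 2), and against untreated LIN28B 0 rose and 23 fell. The hexokinase HK1 rose from 49.4 ± 10.4 to 112 ± 20.6 TPM, and the isoenzymes ENO2 and ALDOC fell from 226 ± 2.62 and 146 ± 30.1 TPM to 120 ± 10.7 and 97.4 ± 18.4 TPM (SD, n = 3). PGK1 measured 566 ± 121 and 439 ± 69.2 TPM, a fall near the threshold (limma, adjusted p = 0.0453). Hypoxia response genes rose in 9 of 25 and fell in 6 against EV (7 and 9 after scaling, 5 and 8 without EV replicates 1 and 2), with 1 higher and 20 lower against untreated LIN28B.

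The promoters of CA9 and DDIT4 are printed because these members of the group parted against EV. CA9 fell far below EV, where untreated LIN28B also lay (3.19 ± 2.06 TPM, SD, n = 3). DDIT4, a stress-induced inhibitor of mTOR, was not called. Each promoter runs from 250 bases before to 50 after the RefSeq start (GRCh38.p14), 5′ to 3′, with the core of the hypoxia response element, ACGTG on either strand, in capitals.
CA9, chr9:35673678-35673977, plus strand: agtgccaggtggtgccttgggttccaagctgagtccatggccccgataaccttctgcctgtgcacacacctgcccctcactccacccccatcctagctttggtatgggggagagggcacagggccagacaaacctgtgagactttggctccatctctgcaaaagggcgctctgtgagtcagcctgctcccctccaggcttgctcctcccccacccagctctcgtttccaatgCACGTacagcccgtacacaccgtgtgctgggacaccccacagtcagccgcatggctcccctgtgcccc
DDIT4, chr10:72273674-72273973, plus strand: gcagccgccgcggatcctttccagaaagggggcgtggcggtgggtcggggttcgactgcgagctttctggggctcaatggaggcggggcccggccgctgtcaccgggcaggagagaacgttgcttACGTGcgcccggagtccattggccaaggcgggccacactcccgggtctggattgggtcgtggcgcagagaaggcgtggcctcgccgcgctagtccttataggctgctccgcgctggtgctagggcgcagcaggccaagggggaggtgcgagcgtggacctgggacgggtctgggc

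The motif occurred in 5900 of 27305 promoters of this length (21.6%) and in 13 of 22 promoters of the hypoxia group (59.1%); ACGTG also lies within the E-box CACGTG. DDIT4 (GRCh38 chr10:72273920-72276036, plus strand) had 381, 419 and 603 TPM in EV and 403, 553 and 367 TPM in the treated libraries. The groups overlapped, and the change of -0.08 log2 was not called (limma, adjusted p = 0.73). Untreated LIN28B had 3104 ± 197 TPM, from which the treated libraries had fallen by 2.83 log2 (limma, adjusted p = 1.02e-08). In DLD-1 the treated libraries, at 96.2 ± 13.7 TPM, were below EV, at 833 ± 43.2 TPM (SD, n = 3). BNIP3, a mitophagy receptor, fell from 102 ± 21.9 to 11.8 ± 0.521 TPM, STC2, a stanniocalcin, from 13.5 ± 1.42 to 0.707 ± 0.539 TPM and ADM, a vasodilator peptide, from 185 ± 18.7 to 84.1 ± 8.11 TPM. In untreated LIN28B, BNIP3 was low as well, at 13.85 ± 2.08 TPM, and ADM was above EV, at 264 ± 7.12 TPM. EGLN3, a prolyl hydroxylase, rose from 42.9 ± 6.61 to 104 ± 19.4 TPM, EPAS1, a hypoxia-inducible factor, from 12.8 ± 3.22 to 39.9 ± 8.22 TPM and CA12 from 6.24 ± 0.701 to 34.8 ± 0.789 TPM, so that the carbonic anhydrases CA9 and CA12 went opposite ways.

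The ATF4 response, which cells use when amino acids run short, was partly higher than in EV. Of 37 genes 20 rose and 4 fell (15 and 8 after scaling, 10 and 5 without EV replicates 1 and 2), with a median log2 change of 0.43, while 1 rose and 30 fell against untreated LIN28B. Over all genes 35.3% rose and 16.3% fell against EV (24.1% and 25.8% after scaling). TRIB3, a pseudokinase that binds AKT, had 17.2, 15.7 and 20.9 TPM in EV and 77.5, 84.6 and 69.5 TPM in the treated libraries, beside 183 ± 14.8 TPM in untreated LIN28B. The treated libraries were thus intermediate (log2 change from EV 2.05, limma, adjusted p = 6.27e-11). PHGDH, the entry enzyme of serine synthesis, rose from 35.4 ± 8.09 to 143 ± 31.6 TPM and VLDLR, a lipoprotein receptor, from 2.41 ± 0.484 to 16.5 ± 1.09 TPM, and the transporter SLC38A2 fell from 114 ± 33.1 to 46.4 ± 5.7 TPM (SD, n = 3). Unfolded protein response genes were mostly uncalled against EV, with 5 higher and 3 lower of 22 (3 and 8 after scaling, 2 and 6 without EV replicates 1 and 2), and 0 rose and 19 fell against untreated LIN28B. XBP1, a transcription factor of that response, rose from 49.2 ± 13.1 to 83.7 ± 10.3 TPM and the chaperone HSP90B1 fell from 434 ± 67.5 to 293 ± 16.7 TPM.

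**Figure D4:**
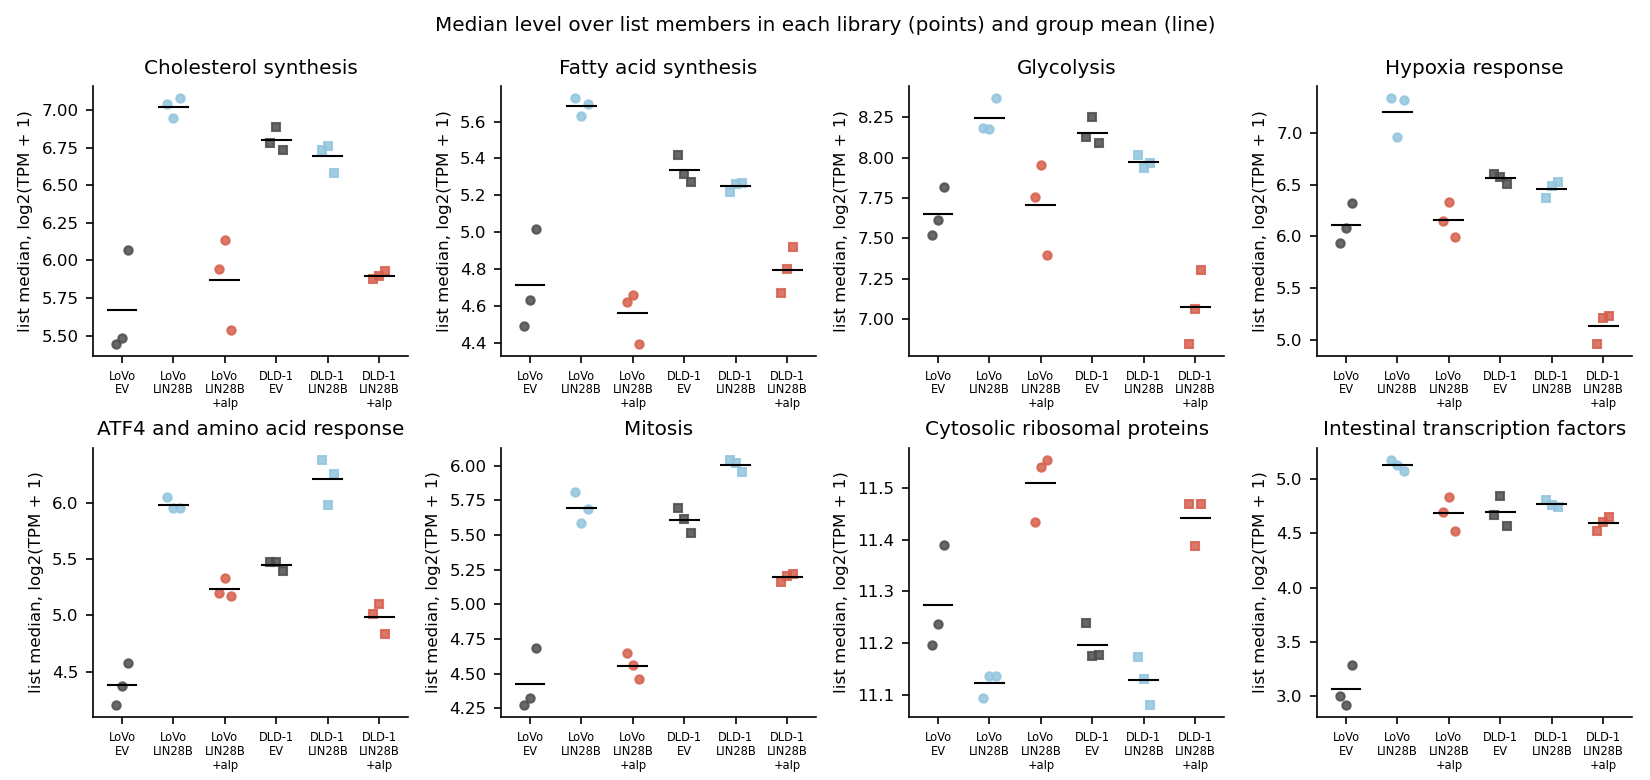
Median level over the members of 8 gene groups (vertical axes, log2(TPM + 1)) in each library, by labelled line and treatment (horizontal axes), with points for libraries and lines for group means. For cholesterol synthesis the treated LoVo-labelled libraries (5.54 to 6.14) overlapped LoVo EV (5.45 to 6.07) and lay below untreated LIN28B (6.95 to 7.08), and for intestinal transcription factors they (4.52 to 4.83) lay above LoVo EV (2.92 to 3.29).

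Cell division genes also lay below untreated LIN28B. Mitosis genes rose in 7 of 34 and fell in 4 against EV (3 and 13 after scaling, 3 and 7 without EV replicates 1 and 2), and all 34 fell against untreated LIN28B, with a median of -1.01 log2. TOP2A, the topoisomerase of dividing cells, rose from 42.7 ± 4.21 to 63.7 ± 5.71 TPM and the kinesin KIF11 from 11.6 ± 1.56 to 21.0 ± 2.94 TPM, while CDC20 and UBE2C, which act with the anaphase-promoting complex, fell from 46.5 ± 2.55 and 120 ± 4.5 TPM to 38.1 ± 4.15 and 90.3 ± 5.82 TPM (SD, n = 3). Replication genes rose in 20 of 45 and fell in 3 against EV, but in 7 and 7 after scaling and in 4 and 5 without EV replicates 1 and 2, and 0 rose and 37 fell against untreated LIN28B. Over all genes 35.3% rose and 16.3% fell against EV (24.1% and 25.8% after scaling). MCM7, a helicase subunit, measured 119 ± 14.9 and 98.3 ± 11.9 TPM, a fall near the threshold (limma, adjusted p = 0.0469). Among MYC-linked genes and D-type cyclins 6 of 19 rose and 4 fell (6 and 10 after scaling, 5 and 6 without EV replicates 1 and 2), and CCND1 measured 101 ± 14.3 and 101 ± 15.8 TPM (limma, adjusted p = 0.983).

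Genes for making ribosomes moved apart from genes for their proteins. Ribosome biogenesis genes fell in 15 of 32 and rose in 4 (23 and 2 after scaling, 15 and 2 without EV replicates 1 and 2), with a median of -0.29 log2; the assembly factor RRS1 fell from 16.0 ± 1.38 to 9.31 ± 0.898 TPM and NOP16 from 41.3 ± 3.92 to 22.2 ± 1.1 TPM (SD, n = 3). Of 79 cytosolic ribosomal protein genes, 47 rose and 0 fell, but 15 rose and 7 fell after scaling and 18 rose and 3 fell without EV replicates 1 and 2. RPLP2, a stalk protein, rose from 2816 ± 99.8 to 4879 ± 270 TPM. Ribosomal protein genes have many near-identical pseudogenes, so their reads may be divided. Against untreated LIN28B 61 of 79 rose and 0 fell, with a median of 0.40 log2.

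All 13 mitochondrially encoded mRNAs were lower than in EV and 12 were called (13 after scaling, 4 without EV replicates 1 and 2), with a median of -1.13 log2. MT-CO2, a cytochrome oxidase subunit, had 21860, 20980 and 13100 TPM in EV and 6664, 5332 and 8003 TPM in the treated libraries. EV replicate 3 was the nearest to the treated libraries, without overlap (log2 change -1.47, limma, adjusted p = 1.3e-05). Nuclear genes of complex I had 7 higher and 6 lower of 36 (1 and 16 after scaling, 3 and 6 without EV replicates 1 and 2). Rises were thus fewer than the 35.3% of all genes (24.1% after scaling). Of the complex I genes, NDUFS5 fell from 370 ± 24.2 to 191 ± 14.8 TPM and NDUFA8 rose from 106 ± 8.04 to 141 ± 6.46 TPM. NDUFA4L2, a gene induced by hypoxia, rose from 2.47 ± 0.682 to 56.3 ± 14.8 TPM (SD, n = 3).

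Stress and growth signalling genes also shifted. Targets of p53 fell in 13 of 24 and rose in 2 (16 and 1 after scaling), with CDKN1A, the p21 cell cycle inhibitor, at 131, 152 and 197 TPM in EV and 27.9, 28.1 and 22.9 TPM in the treated libraries. CDKN1A was lower in each treated library (log2 change -2.54, limma, adjusted p = 1.02e-10), and untreated LIN28B was in between at 65.1 ± 1.94 TPM. TP53I3, an oxidoreductase, rose from 30.5 ± 1.12 to 71.3 ± 5.61 TPM (SD, n = 3). Immediate early and ERK feedback genes rose in 14 of 26 and fell in 8 (11 and 11 after scaling, 9 and 10 without EV replicates 1 and 2). FOS, an AP-1 subunit, had 52.2, 50.9 and 50.7 TPM in EV and 254, 266 and 271 TPM in the treated libraries, beside 95.2 ± 12.3 TPM in untreated LIN28B. The treated libraries were highest for FOS among the LoVo-labelled groups (log2 change 2.34, limma, adjusted p = 2.76e-08), as they were for JUN, at 150 ± 20.2 TPM against 24.0 ± 3.16 TPM in EV. The AP-1 relative FOSL1 fell from 49.3 ± 5.26 to 6.10 ± 0.474 TPM, PHLDA1 from 177 ± 26.6 to 32.0 ± 1.61 TPM and ETV4, an ERK-induced factor, from 29.7 ± 1.39 to 13.3 ± 0.761 TPM. NRF2 targets, which handle oxidants, rose in 10 of 22 and fell in 4 (6 and 4 after scaling), with AKR1C3, a ketosteroid reductase, up from 1.26 ± 0.212 to 22.4 ± 3.67 TPM and the quinone reductase NQO1 down from 141 ± 28.9 to 78.4 ± 7.75 TPM. Lysosome and autophagy genes rose in 13 of 28 and fell in 5 (7 and 6 after scaling, 7 and 5 without EV replicates 1 and 2), with cathepsin CTSL up from 27.1 ± 6.59 to 62.8 ± 7.8 TPM. Of 9 mismatch repair genes 5 rose and 1, MSH6, fell (4 and 2 after scaling, 3 and 1 without EV replicates 1 and 2), MSH6 from 18.5 ± 2.14 to 13.6 ± 0.208 TPM.

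The same comparison in DLD-1 shares no library with this one. There limma called 1825 of 16591 genes higher (11%) and 3742 lower (22.6%), and after median-of-ratios scaling 2719 higher and 2994 lower. Of the 5851 genes higher under the LoVo label 844 (14.4%) were also higher in DLD-1, where they were 46.2% of its rises, and 1439 (24.6%) were lower in DLD-1. Of the 2705 lower genes 664 (24.5%) were lower in DLD-1 too and 227 (8.39%) higher. The difference of the changes, tested as an interaction, was called by limma in 8072 genes (48.7%), 5830 upward (35.1%) and 2242 downward (13.5%) for the LoVo label. After scaling 3634 differed upward and 3849 downward, so the upward excess was not seen there. The difference rests on the EV groups as well, which differed in 60.9% of genes.

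By gene group the changes of both labels parted in metabolism and identity. Cholesterol synthesis fell in 24 of 27 genes in DLD-1 with 0 higher, and the difference was called in 24 of 27, all toward higher values under the LoVo label (20 after scaling, all higher). Glycolysis fell in 24 of 25 in DLD-1 (difference called in 23, and in 20 after scaling), and hypoxia response in 21 of 25 with 1 higher (the difference was called higher in 20 and lower in 3 under the LoVo label, 17 and 4 after scaling). All 16 intestinal factors differed upward, also after scaling, with 4 higher and 3 lower within DLD-1. For MHC class II 8 of 11 differences were called, all downward (9 after scaling). Cytosolic ribosomal proteins rose in 46 of 79 in DLD-1 with 0 lower and differed in 7 upward and 15 downward (0 and 48 after scaling). These differences were also read without regard to EV: between the treated groups of both labels, where 13.2% of all genes were called higher and 8.34% lower under the LoVo label (2086 and 1993 genes after scaling), cholesterol genes were higher in 3 of 27 with 0 lower (3 and 3 after scaling). Hypoxia genes were higher in 20 of 25 there and mitosis genes lower in 27 of 34 (20 and 31 after scaling).

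Some single genes changed alike. CDKN1A fell by 2.57 log2 in DLD-1 beside 2.54 under the LoVo label, a difference of 0.03 log2 (SE 0.18, limma, adjusted p = 0.918). FOS rose by 1.96 log2 in DLD-1, from 27.7 ± 4.07 to 111 ± 26.2 TPM (difference 0.39 log2, limma, adjusted p = 0.251), and CA12 by 1.93 log2 (difference 0.38 log2, limma, adjusted p = 0.164). A p that misses the threshold does not show that the changes were equal. REG4, IL37 and LGR5 rose under both labels and by more under LoVo, with DLD-1 changes of 3.31, 2.18 and 2.21 log2 and differences of 1.51, 1.38 and 1.33 log2 (limma, adjusted p = 7.81e-05, 0.000126 and 5.05e-06). ERBB3 fell slightly in DLD-1, from 110 ± 7.98 to 91.9 ± 5.18 TPM, and the difference of 1.21 log2 was called (limma, adjusted p = 1.13e-06). CLDN1 in DLD-1 measured 6.50 ± 0.761 and 8.06 ± 1.07 TPM, and its difference of 1.31 log2 was called as well (limma, adjusted p = 0.00197). KIT fell in DLD-1, from 40.0 ± 0.997 to 22.2 ± 0.749 TPM, to a level like that of the treated LoVo-labelled libraries at 22.4 ± 2.94 TPM (SD, n = 3).

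The comparison with EV and the comparison between the treated groups share the treated LoVo-labelled libraries. Their calls are therefore not independent, and the shares here only describe the overlap. Of the 8556 called genes 6067 (70.9%) were not called between the treated LoVo-labelled and treated DLD-1 libraries, beside 78.4% of all genes tested. Among the 2800 with a change of 1 log2 or more, 1711 (61.1%) were not called. FGFR3 (2.56 log2 higher than in treated DLD-1, limma, adjusted p = 8.6e-09) and DDIT4 (2.17, limma, adjusted p = 1.21e-07) were among those that did separate the treated groups, and FOXA1, KIT, LGR5, TFF3 and CD74 were not called there (limma, adjusted p = 0.843, 0.99, 0.423, 0.788 and 0.108).

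**Figure D5:**
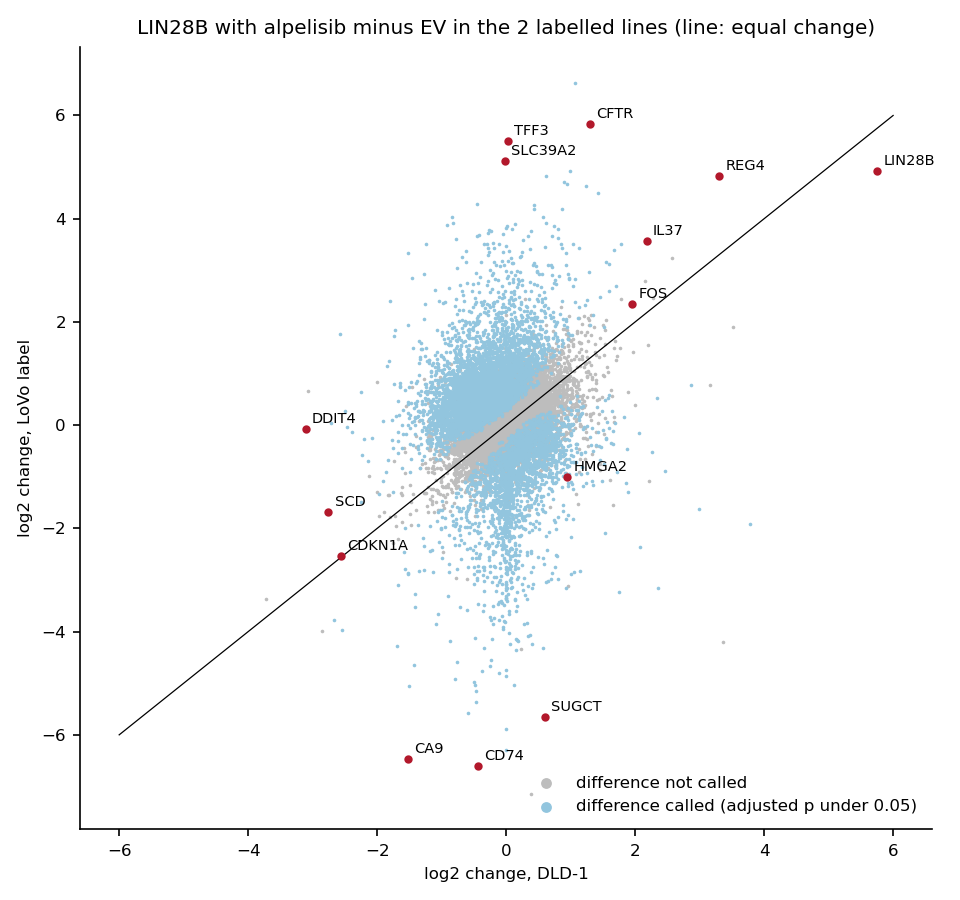
Change of each gene under the LoVo label (vertical axis, log2, LIN28B with alpelisib minus EV) against the change in DLD-1 (horizontal axis, log2), blue where limma called the difference and grey where not, with named genes in red and a line of equal change. CDKN1A lies on the line, while CFTR and TFF3 lie above it and CD74, CA9 and SUGCT below it.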

How the data were processed

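Gene-level values were in TPM (transcript abundance corrected for length and scaled to a fixed total), which the authors deposited as 1 table of 18 libraries. The submitters' processing notes name STAR 2.7.10, Picard, HTSeq, DESeq2 and hg 38; their settings and any use of strand are not given in the sources used here. Since TPM keeps no read depth, no counting interval could be given. All 18 libraries (6 groups of 3) were fitted together with limma 3.58.1 (R 4.3.3) on log2(TPM + 1), with moderated variances that follow mean expression (12 residual and 4.17 prior degrees of freedom). Genes needed 1 TPM in 3 of the 6 libraries compared; 709 of those tested were at 0 in at least 1 of the 6. Benjamini-Hochberg adjustment ran over all 16591 genes, and an adjusted p under 0.05 was called. The script was tested on simulated data.

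Named genes were the 12 largest called changes each way with a group mean of at least 2 TPM, the 5 largest differences from DLD-1 each way, up to 4 called members each way of each list, and 32 fixed genes; some of these are not reported here. The members and lists were chosen with earlier results of these data known. Alternatives were median-of-ratios scaling, rescaling without mitochondrial transcripts, other pseudocounts and filters, no variance trend, only the groups compared, a replicate block and libraries left out. Seed and motif matches were searched in GENCODE v29 and RefSeq sequences of GRCh38.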

Additional observations from a re-analysis of the deposited data

Results flagged for a closer look

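The response to LIN28B with alpelisib differed between the LoVo label and DLD-1 in 8072 genes by limma's interaction test over all 16591 genes. The values here are differences of the log2 changes, LoVo label minus DLD-1, each called at an adjusted p under 0.05. Genes of the gut epithelium and others stood out upward: TFF3 (5.48), SLC39A2 (5.14), NDUFA4L2 (4.87), SH3PXD2A (4.86), FAM3D (4.72), CFTR (4.54), TRMT61A-DT (4.22), PHGR1 (3.93), KIAA0319 (3.81), NCAPD2P1 (3.73), TRMT61A (3.39) and DDIT4 (3.03). Smaller upward differences were those of CDX2 (2.24), KRT20 (2.12), ERBB2 (1.60), REG4 (1.51), TXNIP (1.37), LGR5 (1.33), CLDN1 (1.31), PIK3R1 (1.22), ERBB3 (1.21), PIK3CB (1.04), PIK3CA (0.95), IRS1 (0.83), CCND1 (0.47) and AKT1 (0.40). Differing downward were TNFRSF6B (-6.29), SUGCT (-6.25), CD74 (-6.18), GTSF1 (-5.88), AKAP12 (-4.98) and CA9 (-4.94). So did LTB (-4.90), MIR100HG (-4.56), CCL2 (-4.48), NOTUM (-4.13) and SAA2 (-3.55). Smaller downward differences were those of HMGA2 (-1.96), PIK3IP1 (-1.61), MYC (-0.94), MSH6 (-0.93) and LIN28B (-0.83). These differences rest on both EV groups as well as on both treated groups. After median-of-ratios scaling the difference was called in 3634 genes upward and 3849 downward, and of the 42 genes named here AKT1, CCND1 and IRS1 were no longer called (0.03, 0.10 and 0.47 log2, limma, adjusted p = 0.857, 0.612 and 0.0623). In the hypoxia group as a whole 20 of 25 genes differed upward and 3 downward (17 and 4 after scaling).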

How the results depend on the processing

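Of 284 named results, median-of-ratios scaling left 15 no longer called, made 3 called and turned 1, IGF2BP2, to -0.0364 log2. Fitting only the groups compared ended 22 calls. Leaving out 1 library at a time, summed over the 6 libraries compared, ended 62 calls, left 1639 results on the same side and made 3 calls. A gene enters that sum for each library left out, so its counts are not out of 284. For the counts under the LoVo label, 4279 genes were lower after scaling, 1750 lower at a mean of 5 TPM, where fewer genes were tested, and 3742 higher without EV replicates 1 and 2. LoVo EV and DLD-1 EV then differed in 6715 genes. Leaving out 1 library at a time gave 4987 to 6459 genes higher (lowest without EV replicate 1, highest without EV replicate 3) and 2440 to 2656 lower. It gave 3946 to 5157 called in DLD-1, 7260 to 8757 for the difference, 2676 to 3161 between the treated groups and 9020 to 10378 between the EV groups. Same-numbered EV and treated libraries had deviations with correlations of -0.1495, -0.0662 and -0.3465, beside -0.1591 to 0.275 for libraries of different number. Deviations from the mean of 3 libraries are not independent, so these values cannot decide whether the numbers pair libraries. With a replicate block 5446 genes were higher and 2512 lower, 4660 were called in DLD-1, 7406 for the difference, 2942 between the treated groups and 9611 between the EV groups, and 8 named genes lost their call. TPM carries no depth, so what depth limits for low genes could not be stated.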
